A study of Drosophila melanogaster with 5 samples.

Results

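The microRNA genes of Drosophila melanogaster were examined in the accessible chromatin of 5 sorted populations of adult midgut cells. Every hairpin precursor (pre_miRNA) annotated on the arms of chromosomes 2, 3, 4 and X in BDGP6 was taken, which gave 260 of the 17683 annotated genes of these arms, and hairpins lying within 10 kb of each other were joined into 198 clusters. Of the clusters, 171 held 1 hairpin, 16 held 2, 5 held 3 and 1 each held 4, 5, 6, 7, 8 and 12. A cluster was intronic when all its hairpins lay in an intron of a protein-coding gene on the same strand (85 clusters, 96 hairpins) and intergenic when no protein-coding gene overlapped it on either strand (54 clusters, 80 hairpins). The other 59 clusters (84 hairpins) overlapped an exon on the same strand (37 clusters), a gene on the opposite strand (16 clusters) or had hairpins of different classes (6 clusters).

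ATAC-seq, in which a transposase inserts adapters into open chromatin, was carried out on 1 library of each population. Pros-depleted EEs came from prosV1-Gal4ts flies carrying UAS-GFP and UAS-pros-RNAi, and EEs (enteroendocrine cells) from prosV1-Gal4ts, UAS-GFP flies. Ttk-depleted ECs came from Myo1A-Gal4ts flies carrying UAS-GFP, UAS-ttk-RNAi and pros-mCherry, and ECs (enterocytes) from Myo1A-Gal4ts, UAS-GFP flies. The esg+ progenitor cells came from esg-Gal4ts, UAS-GFP flies. All crosses were kept at 18 °C, female adults of 5 to 7 days were moved to 29 °C, and GFP+ cells were sorted from 100 to 150 guts per sample, so that each population is what its driver marks. The Ttk-depleted cells were sorted for weak GFP together with Pros-mCherry and are therefore a chosen share of the depleted ECs. The labels call the Pros-depleted cells progenitor-like and the Ttk-depleted cells EE-like. Peak names of the progenitor list carry the mark 5w, and those of 3 other lists a replicate mark, which no source used here explains, so an age of that library other than the stated one cannot be told apart from its cell type. The pros-mCherry allele was carried by the Ttk-depleted ECs alone, so it and the depletion of Ttk cannot be told apart. A peak is an interval where the caller MACS3 found more fragments than its background, and its fold enrichment is the height over that background. Fold enrichment depends on depth, so each peak was given its percentile within its own list, with 100 for the strongest.

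MicroRNAs are cut from longer primary transcripts: Drosha and Pasha release the hairpin in the nucleus, and Dicer-1 cuts the mature strand from it. The mature strand guides Argonaute-1 to messenger RNAs that pair with its seed, the bases near its 5′ end, and so lowers their output. In the fly gut, bantam, miR-305 and miR-263a are known to affect intestinal stem cells. Because the primary transcript can start far from the hairpin, an open region close to the hairpin and an open start site are separate measurements, and both are given here.

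The mature products below are those on which the results turn, read from the RefSeq Release 6 genome (BDGP6) and written 5′ to 3′, with the seed (bases 2 to 8) in capitals. Products of separate clusters that share a seed stand together.
bantam-3p (chr3L:642259-642281, plus strand): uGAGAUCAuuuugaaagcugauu
let-7-5p (chr2L:18472044-18472064, plus strand): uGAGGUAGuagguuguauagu
miR-305-5p (chr2L:7425979-7426001, plus strand): aUUGUACUucaucaggugcucug
miR-263a-5p (chr2L:11953463-11953486, minus strand): aAUGGCACuggaagaauucacggg
miR-263b-5p (chr3L:15843460-15843480, minus strand): cUUGGCACugggagaauucac
miR-279-3p (chr3R:29215651-29215672, plus strand): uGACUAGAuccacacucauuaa
miR-996-3p (chr3R:29217244-29217265, plus strand): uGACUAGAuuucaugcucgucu
miR-276a-3p (chr3L:10365281-10365302, plus strand): uAGGAACUucauaccgugcucu
miR-276b-3p (chr3L:10319846-10319867, plus strand): uAGGAACUuaauaccgugcucu
miR-13a-3p (chr3R:15417548-15417569, minus strand): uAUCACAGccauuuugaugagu
miR-2c-3p (chr3R:15417761-15417783, minus strand): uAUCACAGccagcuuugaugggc
miR-11-3p (chr3R:21622504-21622524, minus strand): cAUCACAGucugaguucuugc
miR-124-3p (chr2L:17566426-17566448, plus strand): uAAGGCACgcggugaaugccaag
miR-375-3p (chr2L:857596-857617, plus strand): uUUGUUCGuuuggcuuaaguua

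The seed AGGAACU was shared by miR-276a and miR-276b, GACUAGA by miR-279 and miR-996, and AUCACAG by miR-13a, miR-2c and miR-11. The seed of miR-263a was AUGGCAC, whereas that of miR-263b differed from it and was UUGGCAC. The 4 stretches that follow are 201 bases of the plus strand centred on the summits of peaks that set the examples below apart. Capitals mark matches on either strand to GAGAG (the site of GAGA factor), to GATAA (of GATA factors) and to the letters AGGAC (taken as the core of the Ttk motif), with overlapping matches joined.
peak at the start of pri-mir-263a (chr2L:11971136-11971336, plus strand): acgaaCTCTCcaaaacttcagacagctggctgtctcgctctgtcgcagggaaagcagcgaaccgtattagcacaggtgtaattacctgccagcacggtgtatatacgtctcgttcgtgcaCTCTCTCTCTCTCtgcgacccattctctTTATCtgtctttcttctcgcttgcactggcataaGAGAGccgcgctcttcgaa
peak at the start of CR46004 (chr3L:10306403-10306603, plus strand): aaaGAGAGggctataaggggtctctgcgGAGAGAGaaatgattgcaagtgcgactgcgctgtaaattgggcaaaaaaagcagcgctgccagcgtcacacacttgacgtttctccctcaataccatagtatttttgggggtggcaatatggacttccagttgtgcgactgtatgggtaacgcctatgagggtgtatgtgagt
peak upstream of mir-13b-1, mir-13a and mir-2c (chr3R:15420594-15420794, plus strand): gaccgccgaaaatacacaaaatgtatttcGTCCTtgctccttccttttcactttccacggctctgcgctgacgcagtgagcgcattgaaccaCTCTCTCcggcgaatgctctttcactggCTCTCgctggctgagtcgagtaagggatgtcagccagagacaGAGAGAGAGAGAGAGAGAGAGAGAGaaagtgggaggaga
peak over mir-287 (chr2L:17574645-17574845, plus strand): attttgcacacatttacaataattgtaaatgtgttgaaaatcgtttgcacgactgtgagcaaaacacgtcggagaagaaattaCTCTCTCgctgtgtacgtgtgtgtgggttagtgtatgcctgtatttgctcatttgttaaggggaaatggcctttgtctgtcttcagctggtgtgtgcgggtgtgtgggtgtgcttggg

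GAGAG was found in 21.5% of 201 bp windows of the arms, GATAA in 32.9% and AGGAC in 21.0%. The peak at the start of pri-mir-263a held 7 matches to GAGAG and 1 to GATAA, that upstream of mir-13b-1 held 14 to GAGAG and 1 to AGGAC, and those at CR46004 and mir-287 held 3 and 2 to GAGAG.

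The lists held 8466 peaks on the arms in Pros-depleted EEs, 9048 in EEs, 3269 in Ttk-depleted ECs, 10048 in ECs and 9311 in esg+ progenitor cells. The Ttk-depleted library stood apart, with a median peak width of 129 bp against 476 to 591 bp in the other lists, 0.385% of the arms in peaks against 4.30 to 4.80%, and a lowest fold enrichment of 3.09 against 1.36 to 1.57. Labels were checked by peaks within 3 kb of a TSS (transcription start site). The 6 EE genes (pros, Tk, AstC, Rab3, NPF, Dh31) had one at 4 genes in Pros-depleted EEs (all protein-coding genes 60.6%), 6 in EEs (63.4%), 2 in Ttk-depleted ECs (20.4%), 3 in ECs (63.8%) and 3 in progenitor cells (63.8%). Tk had a peak in EEs alone, and AstC in Pros-depleted EEs and EEs. The 4 EC genes (nub, Myo31DF, mex1, betaTry) had one at 4 genes in Pros-depleted EEs, 3 in EEs, 2 in Ttk-depleted ECs, 3 in ECs and 3 in progenitor cells, and the 4 progenitor genes (esg, Sox100B, fkh, klu) in every library. By this measure only EEs had a peak at all 6 EE genes, but pros and Rab3 had one in every library. The percentile of pros was 51.3 in Pros-depleted EEs, 57.2 in EEs, 74.3 in Ttk-depleted ECs, 87.2 in ECs and 81.6 in progenitor cells. The EC and progenitor genes did not separate their own cell type: Myo31DF, the gene of the Myo1A driver, had no peak in ECs. Of genes of other cells, Mhc (muscle), btl (trachea) and Hml (hemocytes) had no peak in any library, whereas 2 of 3 muscle, 1 of 2 tracheal and 2 of 3 hemocyte genes at most had one in a library. Of the neuronal genes elav, brp and nSyb, 3 had one in Pros-depleted EEs, 3 in EEs, 1 in Ttk-depleted ECs, 2 in ECs and 2 in progenitor cells. Their part in the results was not tested.

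Between 18.7% and 51.5% of the microRNA clusters lay near an accessible region, depending on the library. A peak within 3 kb was found at 86 clusters in Pros-depleted EEs (43.4%, 95% Wilson interval 36.7 to 50.4), against 31.4% of tiles of the arms as long as the median cluster window (6097 bp). The counts were 100 in EEs (50.5%, 43.6 to 57.4, tiles 33.8%), 37 in Ttk-depleted ECs (18.7%, 13.9 to 24.7, tiles 12.2%), 102 in ECs (51.5%, 44.6 to 58.4, tiles 37.3%) and 99 of 198 in progenitor cells (43.1 to 56.9, tiles 34.0%). Intervals cover counting error only. In each library the share of the clusters lay above that of the tiles, whose value fell outside the interval. It lay below that of the other annotated genes with 3 kb to each side, which was 63.3% in Pros-depleted EEs, 65.3% in EEs, 24.6% in Ttk-depleted ECs, 68.3% in ECs and 66.1% in progenitor cells. Genes span other lengths than clusters, and clusters of many hairpins are longer than a tile.

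Proximity to protein-coding start sites differed between clusters, and the shares moved with it. A protein-coding TSS lay in the window of 114 clusters (57.6%). These had a peak at 67 clusters in Pros-depleted EEs (58.8%, tiles with such a TSS 54.7%), 74 in EEs (64.9%, tiles 57.8%), 23 in Ttk-depleted ECs (20.2%, tiles 20.6%), 72 in ECs (63.2%, tiles 58.8%) and 72 in progenitor cells (63.2%, tiles 57.4%). Each value of the tiles lay inside the interval of the clusters. The 84 clusters without a TSS had a peak at 19 clusters in Pros-depleted EEs (22.6%, 15.0 to 32.6, tiles without a TSS 14.4%), 26 in EEs (31.0%, 22.1 to 41.5, tiles 16.2%), 14 in Ttk-depleted ECs (16.7%, 10.2 to 26.1, tiles 5.99%), 30 in ECs (35.7%, 26.3 to 46.4, tiles 21.5%) and 27 in progenitor cells (32.1%, 23.1 to 42.7, tiles 16.8%). Without a coding TSS, each of the 5 intervals thus lay above the value of the tiles. Start sites of noncoding genes, such as that of pri-mir-14, were not left out of these windows. Tiles cover the whole arms, also where reads map to several places and had been removed.

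**Figure D1:**
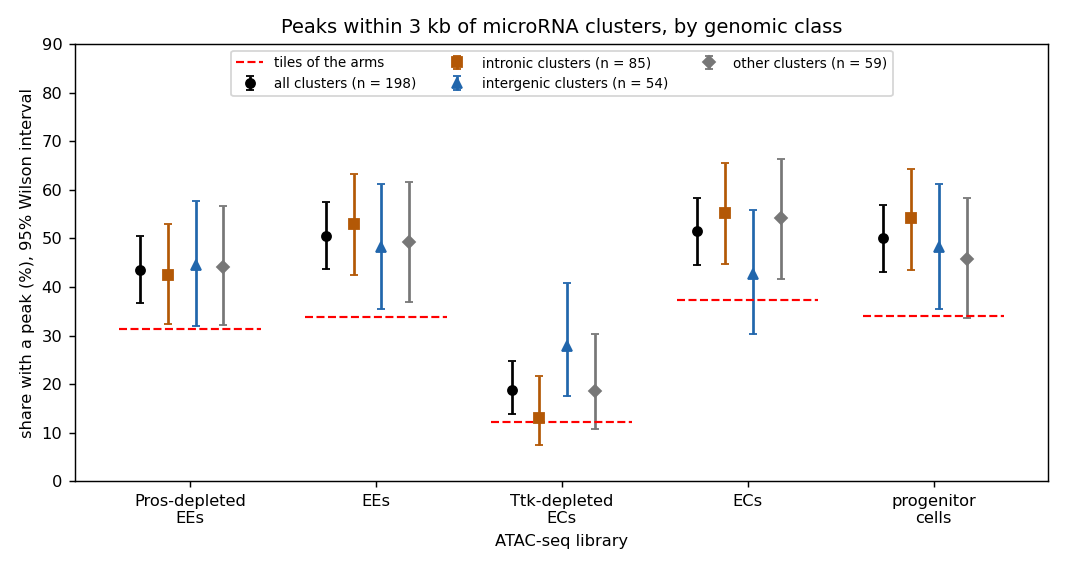
Share of microRNA clusters with a peak within 3 kb (vertical axis, percent) in each library, for all 198 clusters and for the intronic, intergenic and other clusters. Points are shares, bars are 95% Wilson intervals and dashed lines are the shares of tiles of the arms; all intervals of the 3 classes overlap within each library.

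The shares of intronic and intergenic clusters with a peak had overlapping intervals in every library. In Pros-depleted EEs 42.4% of the intronic clusters (36 of 85) had a peak and 44.4% of the intergenic ones (24 of 54), in EEs 52.9% and 48.1%, in ECs 55.3% and 42.6%, and in progenitor cells 54.1% and 48.1%. In Ttk-depleted ECs 11 intronic clusters had one (12.9%, 7.38 to 21.7) and 15 intergenic clusters (27.8%, 17.6 to 40.9). The strongest peak of each cluster was also ranked by class. In ECs its median percentile was 47.3 at intronic clusters (95% interval from order statistics 38.7 to 61.4) and 79.3 at intergenic ones (57.3 to 89.7), and in progenitor cells it was 44.9 at intronic and 68.8 at intergenic clusters. Elsewhere the medians were 54.2 at intronic and 58.1 at intergenic clusters in Pros-depleted EEs, 42.7 and 56.6 in EEs, and 55.8 and 60.4 in Ttk-depleted ECs. The intervals of intronic and intergenic clusters overlapped in every library. At the other clusters the median was 71.4 in Pros-depleted EEs, 71.1 in EEs (57.8 to 77.2, against 34.0 to 55.3 at intronic clusters), 66.8 in Ttk-depleted ECs, 59.6 in ECs and 72.9 in progenitor cells. Over all clusters the median was 61.8 in Pros-depleted EEs, 54.9 in EEs, 60.4 in Ttk-depleted ECs, 58.3 in ECs and 61.9 in progenitor cells. These are the best of up to 5 peaks per cluster. Over all cluster peaks the median was 48.2 in Pros-depleted EEs, 45.7 in EEs, 47.3 in Ttk-depleted ECs, 51.1 in ECs and 42.5 in progenitor cells. A strongest peak above percentile 90 was found at 10 clusters in Pros-depleted EEs, 9 in EEs, 5 in Ttk-depleted ECs, 15 in ECs and 8 in progenitor cells. Of all cluster peaks, 5.30 to 10.3% stood above it, where 10% of each list do so by construction.

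A peak in all 3 normal cell types was more frequent at clusters than at tiles, and so was a peak in any of them. A protein-coding TSS lay in 57.6% of the cluster windows and in 9281 of 21956 tiles, which was not taken into account here. A peak was found in EEs, ECs and progenitor cells at 76 clusters (38.4%, 31.9 to 45.3), against 24.0% of tiles and 55.6% of other genes. None of the 3 had a peak at 72 clusters (36.4%, tiles 52.3%), and 129 clusters had one in at least 1 of the 5 libraries (tiles 49.1%). A peak in all 5 libraries was found at 30 clusters (15.2%, tiles 9.49%). One cell type alone was marked at 8 clusters in EEs (tiles 4.85%), 16 in ECs (tiles 7.1%) and 3 in progenitor cells (tiles 2.43%). EEs and progenitor cells without ECs shared 13 clusters (6.57%, 3.88 to 10.9, tiles 3.15%), EEs and ECs without progenitor cells 3 (tiles 1.79%), and ECs and progenitor cells without EEs 7 (tiles 4.4%). Among the strongest 3269 peaks of each list, the length of the shortest, all 3 types were marked at 25 clusters (12.6%, tiles 8.66%), EEs alone at 9 (4.55%, tiles 4.96%), ECs alone at 4 (2.02%, tiles 1.64%) and progenitor cells alone at 4 (2.02%, tiles 1.97%), so that the count of ECs alone rested on their weaker peaks.

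**Figure D2:**
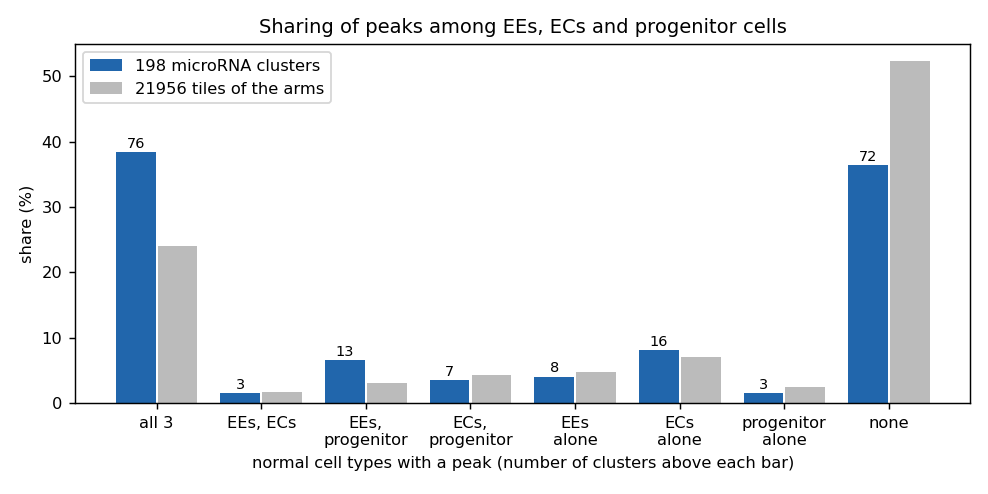
Share of 198 microRNA clusters (blue) and of 21956 tiles of the arms (grey) by which of the 3 normal cell types had a peak (horizontal axis, vertical axis in percent), with the number of clusters above each bar. All 3 types were marked at 76 clusters and none at 72.

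When peaks of all libraries were merged into regions, 223 regions fell in cluster windows, 211 of them with a peak in a normal cell type. All 3 types shared 41.2% of these 211 (34.8 to 48.0), against 36.3% of all regions of the arms. Of 140 cluster regions of EEs, 80.0% had a peak in Pros-depleted EEs (all regions 76.2%), and of 146 cluster regions of ECs, 26.0% had one in Ttk-depleted ECs (all regions 23.8%). Each background value lay inside the interval of the cluster regions, so over all classes together the clusters kept or lost peaks at about the rate of the genome. The classes differed for Ttk depletion. Of 38 EC regions at intergenic clusters, 47.4% had a peak in Ttk-depleted ECs (32.5 to 62.7, above the value of all regions). At intronic clusters it was 15.9% of 69 (9.14 to 26.3). Of EE regions, 83.3% of 36 at intergenic and 75.4% of 65 at intronic clusters had a peak in Pros-depleted EEs, with the value of all regions inside both intervals.

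Among microRNAs of known biology, 22 clusters had been listed by name. Of these, 13 had a peak in Pros-depleted EEs (all clusters 43.4%), 13 in EEs (50.5%), 9 in Ttk-depleted ECs (18.7%), 13 in ECs (51.5%) and 14 in progenitor cells (99 of 198). A peak in all 5 libraries was found at 9 of the 22 (all clusters 15.2%) and in none at 7 (69 of 198). The 7 were mir-263a (mir-bft in the annotation), mir-1, mir-9a, mir-184, mir-276b, mir-957 and mir-iab-4 with mir-iab-8. mir-1 is the muscle microRNA and mir-9a acts in sensory organ precursors, while mir-iab-4 and mir-iab-8 arise from opposite strands of the bithorax complex.

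**Figure D3:**
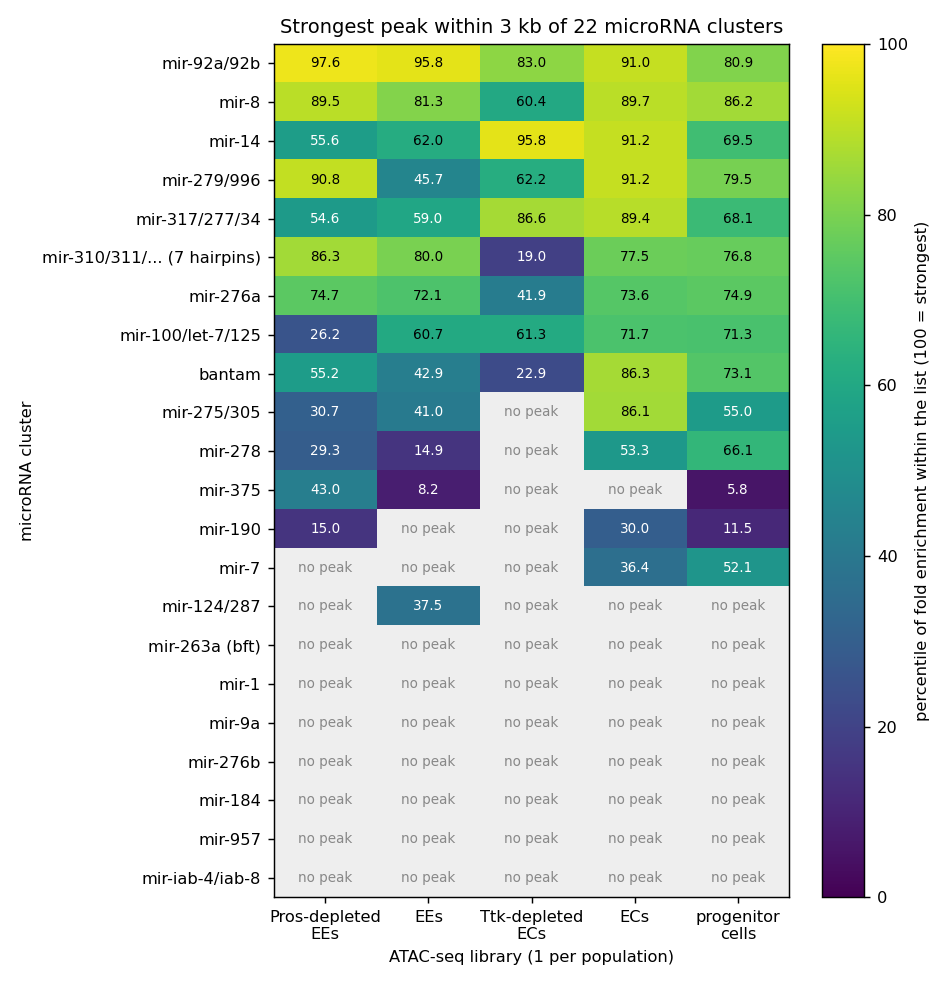
Percentile of the strongest peak within 3 kb of 22 listed microRNA clusters (rows) in the 5 libraries (columns), with 100 for the strongest peak of a list and grey for no peak. mir-92a with mir-92b had values of 80.9 to 97.6, and 7 clusters had no peak in any library.

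bantam, which promotes growth and blocks apoptosis, had 1 peak in each library, with its summit between 992 and 1122 bp downstream of the 5′ end of the hairpin. Its percentile was 55.2 in Pros-depleted EEs, 42.9 in EEs, 22.9 in Ttk-depleted ECs, 86.3 in ECs and 73.1 in progenitor cells. The order was led by ECs. mir-305 regulates Notch and insulin signalling in intestinal stem cells, and its cluster with mir-275 stood at 30.7 in Pros-depleted EEs, 41.0 in EEs, 86.1 in ECs and 55.0 in progenitor cells, with no peak in Ttk-depleted ECs. By −log10 p it stood at 59.9 in Pros-depleted EEs, 67.9 in EEs, 94.4 in ECs and 88.1 in progenitor cells, and ECs ranked first by both. The let-7 cluster (mir-100, mir-let7, mir-125), which times developmental transitions, stood at 26.2 in Pros-depleted EEs, 60.7 in EEs, 61.3 in Ttk-depleted ECs, 71.7 in ECs and 71.3 in progenitor cells. Pros-depleted EEs had its lowest rank, also by −log10 p (16.7).

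mir-14, a regulator of fat and insulin metabolism, lay inside its own peak in Pros-depleted EEs, EEs, ECs and progenitor cells, in intervals of 2000 to 2053 bp. The summits stood between 1011 and 1024 bp upstream of the hairpin, and the Ttk-depleted peak of highest rank, at 1014 bp, was at the same place. Its percentiles were 55.6 in Pros-depleted EEs, 62.0 in EEs, 95.8 in Ttk-depleted ECs, 91.2 in ECs and 69.5 in progenitor cells. Ranked by −log10 p instead, it stood at 90.2 in Pros-depleted EEs, 91.0 in EEs, 97.8 in Ttk-depleted ECs, 96.2 in ECs and 94.9 in progenitor cells, so the order of the EC pair above the EE pair was kept with a smaller gap. mir-317, mir-277 and mir-34, a cluster known in ageing, had 2 peaks in Ttk-depleted ECs and 4 or 5 in each other library, with the strongest at 54.6 in Pros-depleted EEs, 59.0 in EEs, 86.6 in Ttk-depleted ECs, 89.4 in ECs and 68.1 in progenitor cells. Ttk-depleted ECs, ECs and progenitor cells had their strongest peak between mir-317 and mir-277, 2526 to 2530 bp from the 5′ end of mir-317, whereas Pros-depleted EEs and EEs had theirs 1679 bp upstream of it. By −log10 p the values were 89.9 in Pros-depleted EEs, 95.6 in EEs, 89.4 in Ttk-depleted ECs, 94.1 in ECs and 89.3 in progenitor cells, with EEs highest.

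mir-279 with mir-996, which restrain neuronal fates in sensory lineages, stood at 90.8 in Pros-depleted EEs and 45.7 in EEs, at 62.2 in Ttk-depleted ECs and 91.2 in ECs, and at 79.5 in progenitor cells. The strongest peaks shared their place, with summits between 396 and 432 bp upstream of mir-279. EEs were the lowest of the 5. mir-8, of the miR-200 family, had 3 peaks in Pros-depleted EEs and in EEs and 2 in each other library, with percentiles of 89.5 in Pros-depleted EEs, 81.3 in EEs, 60.4 in Ttk-depleted ECs, 89.7 in ECs and 86.2 in progenitor cells. mir-92a with mir-92b and the mir-310 cluster share the seed AUUGCAC, and both had a peak in all 5 libraries. mir-92a with mir-92b stood at 97.6 in Pros-depleted EEs, 95.8 in EEs, 83.0 in Ttk-depleted ECs, 91.0 in ECs and 80.9 in progenitor cells. The mir-310 cluster stood at 86.3 in Pros-depleted EEs, 80.0 in EEs, 19.0 in Ttk-depleted ECs, 77.5 in ECs and 76.8 in progenitor cells. Its fold enrichment was 4.22 in Ttk-depleted ECs and 4.22 in ECs, but fold enrichment depends on depth and cannot be compared between libraries. mir-375, which is known from islet and endocrine cells of vertebrates, had percentiles of 43.0 in Pros-depleted EEs, 8.2 in EEs, and 5.8 for progenitor cells, and no peak in Ttk-depleted ECs or ECs. mir-278, mir-190 and mir-7 had peaks of low or middle rank: mir-278 stood at 29.3 in Pros-depleted EEs, 14.9 in EEs, 53.3 in ECs and 66.1 in progenitor cells, mir-190 at 15.0 in Pros-depleted EEs and 11.5 in progenitor cells, with rank 7035 of 10048 in ECs, and mir-7, which lies in an intron of HnRNP-K, at 36.4 in ECs and 52.1 in progenitor cells. By −log10 p, mir-278 stood lower, at 19.3 in Pros-depleted EEs and 8.8 in EEs.

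The neuronal mir-124 is joined with mir-287 in 1 cluster, and EEs alone had a peak there, at percentile 37.5. It covered mir-287, with its summit 8375 bp from the 5′ end of mir-124, and no library had a peak at mir-124 itself. The stretch over mir-287 shown above is the centre of this peak.

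The strongest peaks lay mostly at microRNAs outside that list, as do most clusters, since the list holds 22 of 198. mir-4955, in an exon of trol, had percentiles of 99.6 in Pros-depleted EEs, 97.8 in EEs, 96.5 in Ttk-depleted ECs, 99.5 in ECs and 98.9 in progenitor cells. mir-4968, in an intron of Mob2, had 98.2 in Pros-depleted EEs, 98.6 in EEs, 98.1 in Ttk-depleted ECs, 99.8 in ECs and 99.1 in progenitor cells. Both windows hold a protein-coding TSS, and both clusters were among the top 3 of every library. mir-4972, in an intron of for, which encodes a cGMP-dependent kinase, was led by EEs, at 99.0 against 32.4 in Pros-depleted EEs, with 41.3 in ECs, 42.5 in progenitor cells and no peak in Ttk-depleted ECs. mir-4945, in an intron of the muscle gene sals, showed the reverse, at 97.8 in ECs and 98.4 in progenitor cells, with 14.2 in EEs and no peak in either depleted library. Its window holds no protein-coding TSS. That of mir-4972 does, and its EE summit lay 2977 bp upstream of the hairpin, near the edge of the window. Start sites of for stood at 97.9 in Pros-depleted EEs, 99.0 in EEs, 58.0 in Ttk-depleted ECs, 95.8 in ECs and 99.2 in progenitor cells. The lead of EEs at mir-4972 was therefore not seen over all start sites of its host.

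In Pros-depleted EEs, 3 clusters had a peak that EEs lacked (1.52%, 0.517 to 4.36, tiles 3.5%): mir-190, mir-994 with mir-318 (percentile 19.1) and mir-285 (13.0). Each also had a peak in ECs, at its own or another place in the window, and none exceeded percentile 19.1 in Pros-depleted EEs. The opposite, a peak in EEs and none in Pros-depleted EEs, was found at 17 clusters (8.59%, 5.43 to 13.3, tiles 5.84%), led by the cluster of mir-982, mir-303, mir-983-1, mir-983-2 and mir-984 at 63.8 in EEs, mir-4981 at 54.2, mir-4912 at 53.3 and mir-4910 at 50.2. Both intervals hold the value of the tiles. Among the strongest 3269 peaks of each list the counts were 9 (4.55%, tiles 3.72%) and 8 (4.04%, tiles 4.12%), so the difference between 3 and 17 was not kept. mir-1004, an intronic hairpin of CG43707, had a peak within its window in these populations alone, at 89.0 in Pros-depleted EEs and 40.3 in EEs. The Pros-depleted peak reached over the edge of the window, with its summit at 3433 bp, and the merged region it belongs to also had peaks of EEs, ECs and progenitor cells that lay outside the window.

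In Ttk-depleted ECs, 7 clusters had a peak that ECs lacked (3.54%, 1.72 to 7.12, tiles 1.38%), and 72 clusters had one in ECs and none in Ttk-depleted ECs (36.4%, tiles 26.5%). In both, the tile value lay below the interval of the clusters. With 3269 peaks against 10048, both counts move with list length. Among the strongest 3269 of each list they were 8 (4.04%, 2.06 to 7.77, tiles 3.58%) and 15 (7.58%, 4.64 to 12.1, tiles 6.8%), and the intervals held the tile values. The 7 were led by mir-13b-1 with mir-13a and mir-2c, at 94.6, then mir-263b at 82.1, mir-4910 at 62.1, mir-1000 at 56.1, mir-4982 at 48.0, mir-9370 at 6.1 and mir-4956 at 3.6. mir-1000, which dampens glutamate release from neurons, stood at 75.5 in Pros-depleted EEs, 97.1 in EEs, and 39.3 for progenitor cells. mir-4982, in an intron of Hs3st-A, stood at 92.4 in Pros-depleted EEs, 94.6 in EEs, and 3.0 for progenitor cells. Both ranked highest in EEs. mir-4910 had its other peak in EEs, at 50.2. mir-263b, in an intron of meru, mir-9370 and mir-4956, in exons of Amun and Sxl, had a peak in no other library. Of the peak at mir-263b the summit lay 2785 bp downstream of the 5′ end of the hairpin.

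The mir-13b-1 cluster had its 2 Ttk-depleted peaks 2553 and 2849 bp upstream of the hairpins, and the summit of the stronger was 16 bp from a start site of CR45911, which RefSeq names as the primary transcript of these 3 hairpins. EEs (24.9) and progenitor cells (2.2) had peaks within 57 to 154 bp of the hairpins, so the populations were marked at different places. The 7 clusters with a product of seed AUCACAG had a peak at 3 clusters in Pros-depleted EEs (all clusters 43.4%), 4 in EEs (50.5%), 2 in Ttk-depleted ECs (18.7%), 3 in ECs (51.5%) and 4 in progenitor cells (99 of 198). Of the 7, 3 had none in any library (all clusters 69 of 198).

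ECs alone of the normal types had a peak at mir-2279 (62.3), mir-1013 in an intron of the Hippo kinase gene wts (58.8), mir-2282 in an intron of sty, an inhibitor of receptor tyrosine kinase signalling (42.2), mir-4965 (40.1) and mir-316 (35.1), which ranked first among the 16. Progenitor cells alone had it at mir-4967 (32.6), mir-4950 (23.3) and mir-9385 (10.6). EEs alone were led by mir-4981, mir-4910, mir-1004, mir-4954 (39.0) and mir-124 with mir-287. The highest of these values was that of mir-2279. The 12 hairpins of mir-972 to mir-979, the 8 of mir-6-3 to mir-309, known for clearing maternal transcripts in the embryo, and the 6 of mir-959 to mir-964 had no peak in any library and were among 69 such clusters of 198. The 7 hairpins of the mir-310 cluster had one in every library. The 5 hairpins from mir-982 to mir-984 had one in EEs, ECs (39.5) and progenitor cells (54.6). mir-10404-3, mir-10404-4 and mir-10404-5, which share their seeds, also had none, and reads mapping to several places had been removed.

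Host start sites had a peak more often than the windows of the hairpins. Over the arms, start sites of protein-coding genes also had one more often than tiles (in EEs 63.4% against 33.8%). The nearest start site of the host gene was over 3 kb away for 38 of the 85 intronic clusters. By this choice their hairpin windows leave out the host start sites, so fewer peaks there follow in part from it. Among these 38, a peak within 3 kb of a host TSS was found for 29 in Pros-depleted EEs (7 at the hairpins), 31 in EEs (10), 25 in Ttk-depleted ECs (1), 33 in ECs (15) and 30 in progenitor cells (12). Over all 85 the host TSS had a peak for 64 clusters in Pros-depleted EEs (75.3%), 69 in EEs (81.2%), 43 in Ttk-depleted ECs (50.6%), 67 in ECs (78.8%) and 68 in progenitor cells (80.0%), above the values of all protein-coding genes given for the marker genes. Where a gene has several start sites, the strongest peak at any of them is given, and their number was not taken into account. mir-11, for example, lies with mir-998 in an intron of the cell cycle gene E2f1, whose nearest TSS is 10122 bp away and whose start sites stood at 82.0 in Pros-depleted EEs, 85.1 in EEs, 60.2 in Ttk-depleted ECs, 89.2 in ECs and 81.0 in progenitor cells, with no peak at the hairpins in any library.

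A noncoding gene on the same strand contained 29 clusters. A start site of such a gene had a peak for 16 clusters in Pros-depleted EEs (55.2%, 37.5 to 71.6, all noncoding genes other than hairpins 40.4%), 17 in EEs (58.6%, 40.7 to 74.5, noncoding genes 41.5%), 13 in Ttk-depleted ECs (44.8%, 28.4 to 62.5, noncoding genes 18.1%), 15 in ECs (51.7%, 34.4 to 68.6, noncoding genes 44.5%) and 16 in progenitor cells (55.2%, 37.5 to 71.6, noncoding genes 43.1%). The value of these genes lay below the interval in Ttk-depleted ECs and inside it in the other 4 libraries. For 9 of the 29 clusters the nearest start site was over 3 kb away, and a start site had a peak for 6 in Pros-depleted EEs (3 at the hairpins), 6 in EEs (3), 4 in Ttk-depleted ECs (2), 6 in ECs (3) and 5 in progenitor cells (3).

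**Figure D4:**
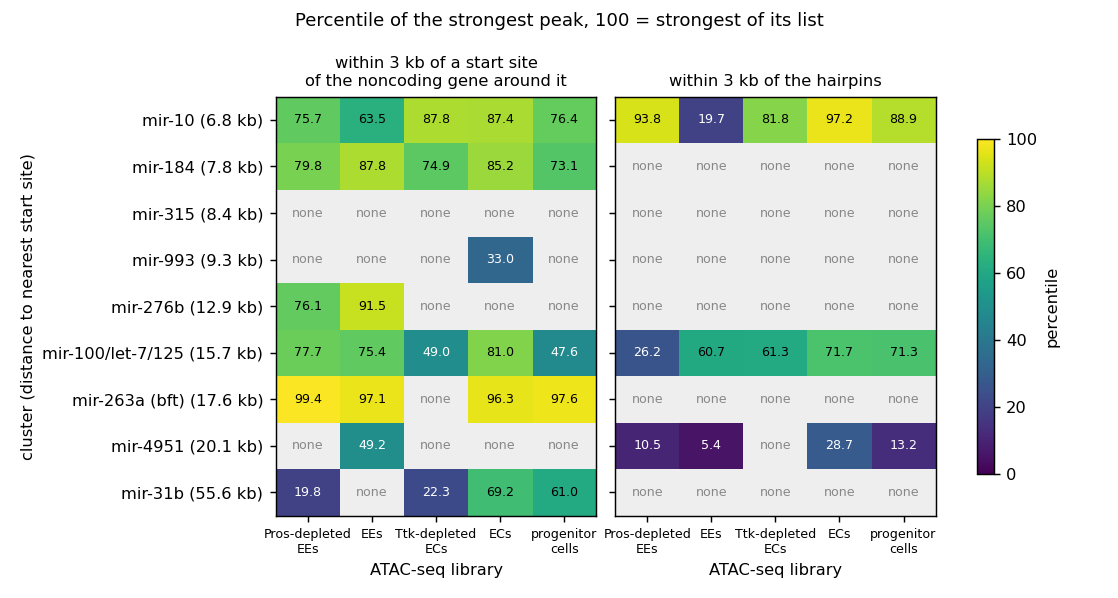
Percentile of the strongest peak within 3 kb of a start site of the noncoding gene that contains the cluster (left) and within 3 kb of the hairpins (right), for the 9 clusters whose nearest start site is over 3 kb away (rows, with that distance in kb) in the 5 libraries (columns). mir-263a had no peak at the hairpin and 96.3 to 99.4 at the start site in 4 libraries.

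mir-263a, which lowers sodium channel levels, had the highest ranks among these 9. Its primary transcript pri-mir-263a (CR43314) starts 17591 bp from the hairpin, and that start had a peak at percentile 99.4 in Pros-depleted EEs, 97.1 in EEs, 96.3 in ECs and 97.6 in progenitor cells, with none in Ttk-depleted ECs. The hairpin itself had no peak in any library. mir-184 was alike, with no peak at the hairpin and a start 7834 bp away at 79.8 in Pros-depleted EEs, 87.8 in EEs, 74.9 in Ttk-depleted ECs, 85.2 in ECs and 73.1 in progenitor cells. mir-276b lies in CR46004, whose nearest start is 12901 bp away and had a peak at 76.1 in Pros-depleted EEs and 91.5 in EEs. The 3 remaining libraries had no peak at that start. Its relative mir-276a, with the same seed, had start sites in CR46006 marked at 99.9 in Pros-depleted EEs, 99.1 in EEs, 61.3 in Ttk-depleted ECs, 85.2 in ECs and 99.3 in progenitor cells. RefSeq names CR46006 as the primary transcript of both, although its annotated span holds mir-276a and not mir-276b.

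The let-7 cluster starts 15717 bp from its hairpins, with percentiles there of 77.7 in Pros-depleted EEs, 75.4 in EEs, 49.0 in Ttk-depleted ECs, 81.0 in ECs and 47.6 in progenitor cells. Starts of pri-bantam had 94.7 in Pros-depleted EEs, 88.2 in EEs, 95.8 in Ttk-depleted ECs, 99.1 in ECs and 92.7 in progenitor cells, above the peak beside the hairpin in every library. mir-10, which lies among the Hox genes of the Antennapedia complex, had peaks at both places. The start stood at 75.7 in Pros-depleted EEs, 63.5 in EEs, 87.8 in Ttk-depleted ECs, 87.4 in ECs and 76.4 in progenitor cells, and the hairpin at 93.8 in Pros-depleted EEs, 19.7 in EEs, 81.8 in Ttk-depleted ECs, 97.2 in ECs and 88.9 in progenitor cells. EEs ranked lowest at both. The starts of mir-1, mir-9a, mir-252 and mir-315 and that of the mir-6 cluster had no peak in any library.

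Peak summits lay on both sides of the hairpin. Along the strand of the hairpin, 54.1% of 122 summits were upstream of the 5′ end in Pros-depleted EEs, 56.3% of 135 in EEs, 64.0% of 50 in Ttk-depleted ECs (50.1 to 75.9), 53.5% of 144 in ECs and 53.4% of 146 in progenitor cells. Within 500 bp of the 5′ end lay 20 in Pros-depleted EEs, 23 in EEs, 12 in Ttk-depleted ECs, 23 in ECs and 23 in progenitor cells. A hairpin overlapped a peak, in full or in part, at 20 clusters in Pros-depleted EEs (10.1%, arms in peaks 4.30%), 24 in EEs (12.1%, arms 4.80%), 3 in Ttk-depleted ECs (1.52%, arms 0.385%), 18 in ECs (9.09%, arms 4.44%) and 21 in progenitor cells (10.6%, arms 4.80%). This was so in all 3 normal cell types at 13 clusters, among them mir-14, mir-958 and mir-966. The share of the arms counts single bases, which meet a peak less often than a whole hairpin does, so these shares are unlike measures.

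**Figure D5:**
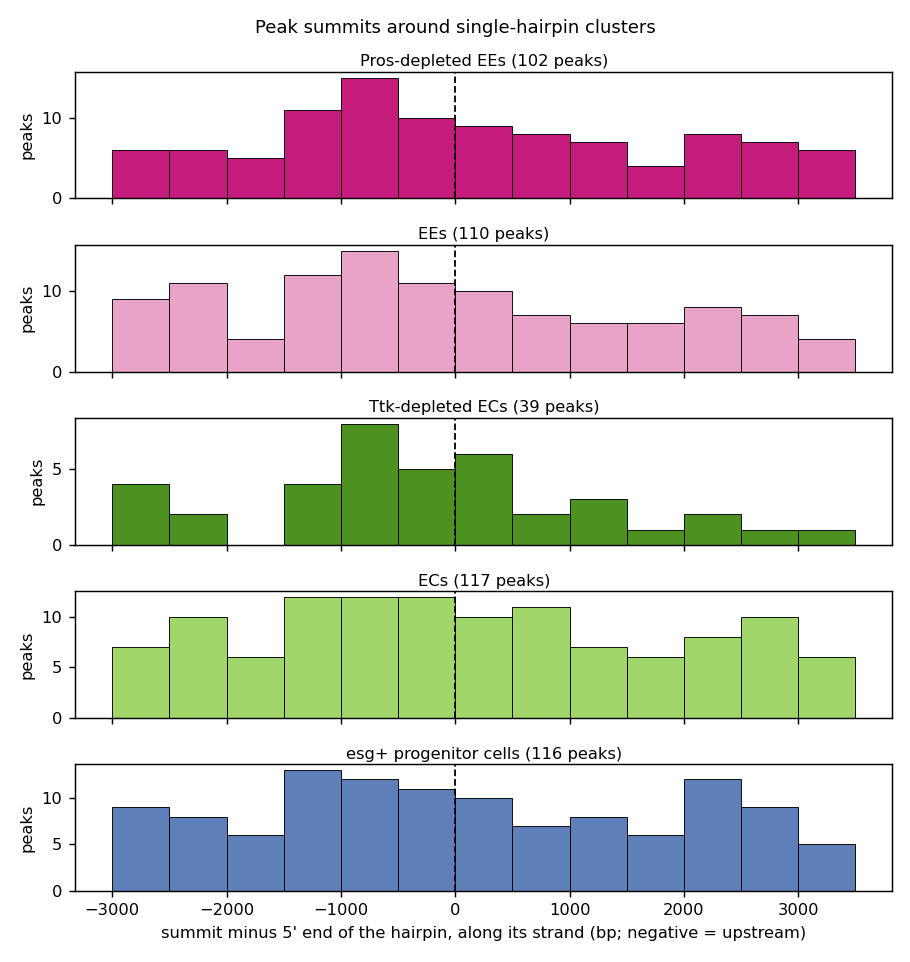
Number of peaks (vertical axis) by the distance of the summit from the 5′ end of the hairpin along its strand (horizontal axis, bp in bins of 500, negative for upstream), for clusters of 1 hairpin in each library, without summits beyond the axis. Of the summits at all clusters, 53.4 to 64.0% lay upstream.

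Of the motifs, searched on both strands, GAGAG was most frequent in Ttk-depleted ECs, at cluster peaks and over the list. It was found within 100 bp of the summit in 62.0% of 50 cluster peaks of Ttk-depleted ECs (48.2 to 74.1), against 49.1% of all peaks of that list, 37.8% against 33.5% in Pros-depleted EEs, 34.0% against 33.9% in EEs, 30.8% against 31.0% in ECs and 36.4% against 31.7% in progenitor cells. Each list's own value lay inside the interval of its cluster peaks. GATAA was found in 46.5% of cluster peaks against 47.4% of the list in Pros-depleted EEs, 38.3% against 45.5% in EEs, 26.0% against 36.9% in Ttk-depleted ECs, 37.0% against 35.1% in ECs and 41.1% against 45.2% in progenitor cells. AGGAC was found in 7.87% against 9.69% in Pros-depleted EEs, 10.6% against 10.6% in EEs, 18.0% against 14.9% in Ttk-depleted ECs, 17.8% against 15.8% in ECs and 10.6% against 7.74% in progenitor cells. CANNTG, the E-box, was found in 62.0 to 68.8% of cluster peaks, in 67.7 to 68.8% of all peaks of the lists and in 63.1% of arm windows. For CANNTG too, the value of each list lay inside the interval of its cluster peaks. A match describes the sequence and not binding.

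Of 15 genes that make and use microRNAs or related small RNAs, a TSS peak was found at 13 in Pros-depleted EEs (all protein-coding genes 60.6%), 13 in EEs (63.4%), 7 in Ttk-depleted ECs (20.4%), 13 in ECs (63.8%) and 14 in progenitor cells (63.8%), and 12 had one in all 3 normal types. AGO1, the microRNA Argonaute, stood at 87.4 in Pros-depleted EEs, 77.7 in EEs, 91.6 in Ttk-depleted ECs, 91.2 in ECs and 75.4 in progenitor cells. AGO2, that of small interfering RNAs, stood at 98.4 in Pros-depleted EEs, 99.3 in EEs, 61.3 in Ttk-depleted ECs, 99.6 in ECs and 97.3 in progenitor cells. These and me31B, a helicase of repressed messenger RNAs, were marked in every library. drosha, pasha and Dcr-1, which process the hairpin, had lower ranks and no peak in Ttk-depleted ECs, with drosha at 22.1 in Pros-depleted EEs, 16.4 in EEs, 31.4 in ECs and 62.0 in progenitor cells. loqs, the partner of Dicer-1, had a peak only in ECs (10.9) and progenitor cells (55.7), and Nbr, a trimming exonuclease, in no library.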

How the data were processed

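The authors made 1 ATAC-seq library from each of 5 sorted populations. Per the labels and the study's methods, Cutadapt trimming was followed by Bowtie2 alignment (2.2.4 in the submitters' processing notes) against BDGP6, with duplicates and multimapped reads removed, and peaks were called per sample with MACS3. Each deposited list gives intervals, summits, a fold enrichment over background (a ratio) and the −log10 p and −log10 q that the authors obtained with MACS3. Depth is unknown, since the lists hold no counts.

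Peaks on 6 arms were kept, and 25 to 108 per list on other sequences were left out. Hairpins came from the Ensembl release 115 annotation, where they are transcripts of biotype pre_miRNA. Another 2 hairpins outside the arms were not analysed here, and 1 marker gene is not reported here. Mature products listed as genes of their own were not counted as genes. Sequences came from the RefSeq genome of the same release, where all 260 hairpins matched by coordinates. A cluster was called when a peak interval overlapped its window of 3 kb to each side. The annotation was read by its start sites, and sequence motifs were counted in 201 bp around summits. Tiles were adjacent windows of 6097 bp along the arms.

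With 1 library per population no test was made, and shares carry 95% Wilson intervals. Members, lists and comparisons were chosen with earlier results of these data known. Clusters named were 22 listed by name, the 3 of highest rank in each library, up to 5 of highest rank marked in 1 normal type alone, the 5 with most hairpins, and up to 8 gained or lost after depletion; other clusters (mir-10, mir-11, mir-252, mir-315, mir-958, mir-966 and mir-10404 copies) were named after their values were seen. The windows at start sites of hosts and noncoding genes, and the split by a coding TSS, were also added after the data were seen. Alternatives were stricter peaks, equal list lengths, windows of 1 and 10 kb, summits, other joining, hosts on either strand and ranks of −log10 p. Calls were tested on simulated peaks, planted inside the windows of some clusters and outside those of the others. All 198 clusters were called correctly, with or without a peak. Analyses ran in Python 3.11.15 (matplotlib 3.10.9 for figures, SciPy 1.17.1, pandas 2.3.3, numpy 2.4.6).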

Additional observations from a re-analysis of the deposited data

How the results depend on the processing

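No paired analysis was possible because each population had 1 library and no test was made. Of 83 values recomputed under 10 alternatives, 40 stayed inside the 95% interval of the value reported and 43 did not. The shares below are of clusters with a peak, in the order Pros-depleted EEs, EEs, Ttk-depleted ECs, ECs and progenitor cells, or in all 3 normal types. With 1 kb windows they were 27.3%, 29.3%, 11.6%, 29.8% and 30.3%, and 19.2% in all 3. With 10 kb they were 79.8%, 82.8%, 43.4%, 83.3% and 81.3%, and 72.7%. Among the strongest 3269 peaks of each list they were 21.7%, 21.2%, 22.2% and 23.2% in Pros-depleted EEs, EEs, ECs and progenitor cells, and 12.6% in all 3 (tiles 8.66%). At a −log10 q of at least 5 they were 43.4% in EEs, 7.07% in Ttk-depleted ECs, 34.8% in ECs and 29.8% in all 3, and at 10 they were 31.3% in Pros-depleted EEs, 34.8% in EEs, 1.01% in Ttk-depleted ECs, 27.3% in ECs and 24.7% in all 3. At 10 the Ttk-depleted list kept 110 peaks. Intronic clusters with 1 kb windows stood at 23.5%, 28.2%, 5.88%, 30.6% and 28.2%, and with equal lists at 17.6%, 15.3%, 16.5% and 15.3% without Ttk-depleted ECs. Intergenic clusters with 1 kb stood at 33.3% in EEs, 27.8% in ECs and 35.2% in progenitor cells, and with equal lists at 20.4%, 18.5%, 27.8% and 25.9% without Ttk-depleted ECs. With hosts on either strand and of any long biotype, 12.5% of the intergenic clusters had a peak in Ttk-depleted ECs. The fall with smaller windows and fewer peaks follows from their construction. Absolute shares, and absences in Ttk-depleted ECs, therefore depend on the window and list length, and depth and cell type cannot be told apart.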
